A study of Mus musculus with 23 samples.

Results

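The genes described here encode endophilins, amphiphysins, dynamins, synaptojanin 1 and AP180, proteins that retrieve synaptic vesicle membrane after transmitter release. They are the 10 rows of the count files whose Ensembl identifiers map to *Sh3gl1*, *Sh3gl2*, *Sh3gl3*, *Sh3glb2*, *Amph*, *Bin1*, *Dnm1*, *Dnm3*, *Synj1* and *Snap91*, out of 56941 rows. The rule takes them by name and uses no measured value, but the list was drawn up with earlier results of these data known. All 10 were among the 14488 genes that passed the expression filter and were tested.

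The RNA came from primary hippocampal neurons of newborn mice homozygous for the Nedd8cKO allele, in which loxP sites flank part of *Nedd8*, the gene of a ubiquitin-like protein modifier. On day 1 in vitro the neurons received lentivirus with the Synapsin1 promoter, which is active in neurons, driving either RFP alone (RFP, the control) or CRE recombinase tagged with RFP (CRE), so both groups carry the floxed allele, a virus and RFP. The labels give 12 days in culture before RNA extraction, and the methods of the study give a day more. Of 23 libraries, 12 CRE and 11 RFP, the 21 that the study kept in its count table (11 CRE and 10 RFP) were compared, with 7430401 to 17112815 counts each. The number before the hyphen of a library name (1, 2 or 3) is read as the culture, which the labels do not state. The gene expression graphs of the study count 3 animals or biological replicates, and the labels do not say which libraries came from separate dishes or animals, so p-values over 21 libraries measure the spread between these libraries, which may be technical in part.

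Endocytosis at a nerve terminal starts when the adaptor complex AP2 and AP180 gather cargo and clathrin on the membrane. Amphiphysins and endophilins, whose BAR domains bind curved membrane, shape the neck of the bud and recruit dynamin, a GTPase that cuts it, and synaptojanin 1, a lipid phosphatase that helps to shed the coat. The same steps run outside neurons with paralogs such as dynamin 2 and CALM, so a neuronal and a widely expressed form of several members can be followed in one culture.

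*Nedd8* itself had 44.1 to 76.0 CPM (read counts scaled to library size with TMM factors) in the RFP and 5.92 to 17.96 CPM in the CRE libraries, with no overlap. The library CRE1-3 stood apart from the other 20. Mitochondrial genes took 0.261% of its counts, against 3.44% in RFP2-4 and 7.0% or more in the rest, and the higher the GC content of a gene, the higher stood its log2 CPM there against the mean of the others (Spearman's rho 0.723 across genes, which are not independent replicates). Of the libraries outside the comparison, CRE3-3 shared this profile at 1546796 counts (1.83% mitochondrial) and RFP3-2 had 24.2% of its counts on *Rn18s-rs5*. The part of these features in the results was not tested beyond the values given with and without the libraries.

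In GRCm39, *Sh3gl2* (ENSMUSG00000028488) lies on chromosome 4 from 85123358 to 85557432, *Snap91* (ENSMUSG00000033419) on chromosome 9 from 86647416 to 86762989 and *Amph* (ENSMUSG00000021314) on chromosome 13 from 19132375 to 19338201. *Dnm1* (ENSMUSG00000026825) lies on chromosome 2 from 32197854 to 32243376, *Synj1* (ENSMUSG00000022973) on chromosome 16 from 90732969 to 90808396, *Sh3glb2* (ENSMUSG00000026860) on chromosome 2 from 30231436 to 30249380 and *Sh3gl1* (ENSMUSG00000003200) on chromosome 17 from 56323748 to 56343672. Exons of *Sh3gl2*, *Snap91* and *Amph* overlap no exon of another gene in the annotation. Exons of *Sh3gl1* share 2360 of 5584 bases with *Mpnd* and those of *Sh3glb2* 2109 of 8891 bases with *Nup188*, both on the opposite strand. The library kit keeps strand, but the strand setting of the counting is not given in the sources used here, so reads of these pairs may not have been told apart. The overlap was 165 of 7697 bases for *Dnm1*, 322 of 8921 for *Synj1*, 543 of 8892 for *Bin1*, 527 of 12661 for *Sh3gl3* and 870 of 24918 for *Dnm3*. Stretches of 50 bases found also in another gene made up at most 0.99% of any of the 10, which was in *Sh3gl3*.

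The 250 bases before the outermost annotated start of *Sh3gl2*, *Snap91* and *Amph* are shown because these 3 genes had the largest falls of the 10 and passed the threshold under all 17 other settings of the comparison. They were read from GRCm39 at chr4:85123108-85123357 (plus strand), chr9:86762990-86763239 (minus strand) and chr13:19132125-19132374 (plus strand), and no annotated exon touches them. Capitals mark matches to 8 motifs searched on both strands.
Sh3gl2: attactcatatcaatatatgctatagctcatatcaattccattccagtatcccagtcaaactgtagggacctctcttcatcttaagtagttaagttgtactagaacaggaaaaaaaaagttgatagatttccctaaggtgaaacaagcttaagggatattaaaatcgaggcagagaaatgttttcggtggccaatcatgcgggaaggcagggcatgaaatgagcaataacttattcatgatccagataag
Snap91: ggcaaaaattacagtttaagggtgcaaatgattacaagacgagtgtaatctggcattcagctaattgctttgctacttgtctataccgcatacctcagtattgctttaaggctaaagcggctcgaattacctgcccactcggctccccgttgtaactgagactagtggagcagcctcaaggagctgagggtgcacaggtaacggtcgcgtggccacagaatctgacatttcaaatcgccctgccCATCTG
Amph: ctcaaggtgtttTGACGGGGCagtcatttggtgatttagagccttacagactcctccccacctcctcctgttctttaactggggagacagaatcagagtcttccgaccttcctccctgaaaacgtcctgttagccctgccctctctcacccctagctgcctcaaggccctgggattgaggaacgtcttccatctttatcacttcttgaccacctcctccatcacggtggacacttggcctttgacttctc
The capitals in *Snap91* are the E-box CAGATG read on the other strand, and those in *Amph* are TGACNNNGC, the core of the antioxidant response element. CAGATG stood before 3 of the 10 genes (*Sh3gl1*, *Dnm3*, *Snap91*) and before 13.8% of 21757 protein-coding genes, TGACNNNGC before 1 of the 10 and 9.32% of all, and the GC box CCGCCC before 1 of the 10 (*Sh3glb2*) and 29.9% of all. The E-box CAGCTG (12.0% of all windows), the cAMP response element TGACGTCA (1.31%), TGACGCAA (0.455%), the NRF1 site (0.57%) and the NRSF/REST site (0.0046%) stood before none of the 10. Some starts used by these genes lie downstream of the outermost one, and a match describes letters only.

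Of the 10 genes, 5 were lower and 1 higher in CRE than in RFP libraries at an adjusted p under 0.05 in edgeR's quasi-likelihood test, and 4 did not pass. The adjustment was by Benjamini-Hochberg over all 14488 genes tested, of which 13.8% were lower and 16.4% higher. *Sh3gl2*, *Snap91*, *Amph*, *Dnm1* and *Synj1* fell and *Sh3glb2* rose. The log2 fold change was negative for 8 of the 10, with a median of -0.40, while it was negative for 48.3% of all genes tested, with a median of 0.02. Scaling by total count alone, which moved the balance of all calls from 2374 higher and 1996 lower to 2949 and 1533, left the sign of each of the 10. For *Sh3gl2*, *Amph* and *Snap91* all 11 CRE values were under all 10 RFP values, as they were for 2.08% of all genes. In such bulk cultures, fewer cells of a type and less RNA per cell cannot be told apart.

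**Figure D1:**
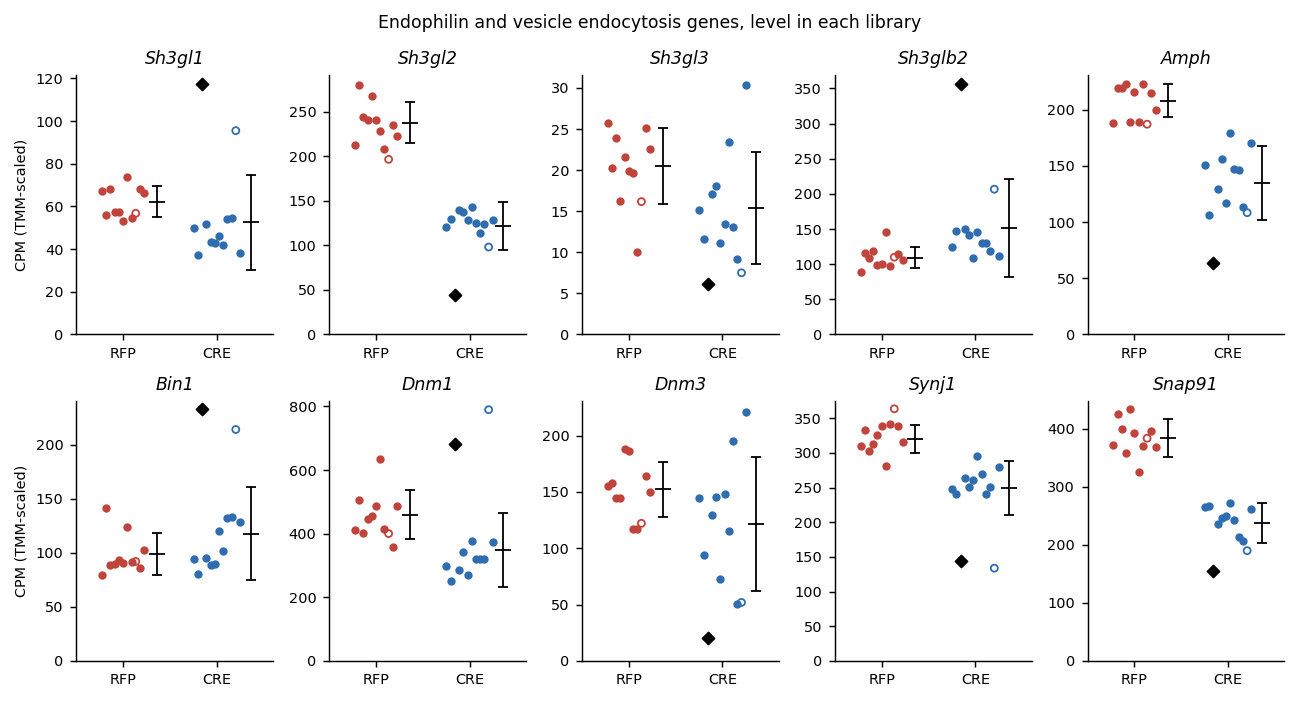
Level of each of the 10 genes in each library, in CPM on an axis that starts at 0; filled points are the 21 libraries compared, the black diamond is CRE1-3, open circles are CRE3-3 and RFP3-2, which were not compared, and the bars give mean and SD of the 21. All CRE points of *Sh3gl2*, *Amph* and *Snap91* lie below all RFP points. The diamond lies far above the filled CRE points for *Sh3gl1* (117 CPM), *Sh3glb2* (356 CPM), *Bin1* (233 CPM) and *Dnm1* (681 CPM). It lies below them for *Sh3gl2* (44.0 CPM) and *Synj1* (144 CPM). The open circle of CRE3-3 lies beyond the diamond for *Dnm1* (790 CPM) and *Synj1* (134 CPM).

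Levels can be compared between genes only per exon length, given here as mean CPM per kb of annotated exons in the 10 RFP libraries. *Dnm1* was highest at 59.7 ± 9.94 (SD) CPM per kb, and its range did not overlap that of the next gene. *Synj1* (35.9 ± 2.2), *Snap91* (35.7 ± 3.00), *Sh3gl2* (29.5 ± 2.79) and *Amph* (24.1 ± 1.73) followed, with overlapping ranges from each gene to the next. *Sh3glb2* (12.3 ± 1.75), *Sh3gl1* (11.1 ± 1.31) and *Bin1* (11.1 ± 2.16) formed a lower run that did not overlap *Amph* and whose neighbours could not be ordered. *Dnm3* (6.12 ± 0.97) and *Sh3gl3* (1.62 ± 0.37) were lowest, each below the gene before it without overlap. The length joins all annotated exons of a gene, 24918 bases for *Dnm3*, and the order depends on it. In CPM alone, the RFP mean of *Dnm3* was 152, above that of *Sh3glb2* at 109. The 5 genes called lower were the 5 with the highest level per kb in the control. A call depends on the standard error as well as on the fold change. *Sh3gl3*, the lowest gene, was at -0.44 (standard error 0.22) and not called, while *Synj1* was called at -0.38 (standard error 0.10).

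Endophilin A1, the brain form encoded by *Sh3gl2*, had the largest fall of the 10. The RFP libraries ran from 208 to 280 CPM (median 238) and the CRE libraries from 44.0 to 143 CPM (median 128). The 44.0 CPM were in CRE1-3, the other 10 CRE libraries lay between 114 and 143 CPM, and the groups did not overlap. The level fell by 49.6%, a log2 fold change of -0.99 (standard error 0.14, edgeR adjusted p = 3.91e-06), and without CRE1-3 it was -0.90 (edgeR adjusted p = 6.65e-11). Without that library 18.7% of 14498 genes were lower and 19.2% higher.

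Endophilin A2 is encoded by *Sh3gl1* and present in most tissues, and its call turned on CRE1-3. RFP libraries had 52.9 to 73.6 CPM (median 62.0) and CRE libraries 37.5 to 117 CPM (median 46.0). CRE1-3 was the library at 117 CPM, above every RFP library, while the other 10 CRE libraries reached at most 54.6 CPM and 8 of them were under the lowest RFP value. The log2 fold change was -0.27 (95% interval -0.58 to 0.05, edgeR adjusted p = 0.229) with CRE1-3 and -0.45 (edgeR adjusted p = 3.18e-04) without it. CRE3-3, which was not compared, also stood high, at 95.5 CPM.

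Endophilin A3, encoded by *Sh3gl3*, was the least abundant of the 10, with 10.0 to 25.8 CPM in RFP (median 20.9) and 6.13 to 30.4 CPM in CRE libraries (median 13.5). The groups overlapped through most of their range, and the log2 fold change of -0.44 (95% interval -0.86 to -0.01, edgeR adjusted p = 0.137) did not pass the threshold. The interval rests on a normal approximation and is narrower than the test allows, with an unadjusted edgeR p of 0.055. Without CRE3-4, the CRE library at 30.4 CPM, it was -0.62 and passed (edgeR adjusted p = 0.0214).

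Endophilin B2, encoded by *Sh3glb2*, belongs to the endophilin B branch, which acts mainly on intracellular membranes. It was the only one of the 10 called higher in CRE, with 89.2 to 145 CPM in RFP (median 107) and 109 to 356 CPM in CRE libraries (median 131). The groups overlapped, 3 of 11 CRE libraries exceeded the highest RFP value, and the top value was again CRE1-3. The log2 fold change was 0.45 (standard error 0.17, edgeR adjusted p = 0.0435), and without CRE1-3 it was 0.24 (edgeR adjusted p = 0.0299). The call was lost on leaving out any one of 17 other libraries, with an adjusted p of at most 0.0799 in edgeR, and was kept under 10 of the 17 other settings. It was lost under limma-voom (adjusted p = 0.0655), with the culture number as a block (edgeR adjusted p = 0.0733), with the culture and library number as a block (edgeR adjusted p = 0.107), with counts summed per culture (edgeR adjusted p = 0.0863), and on leaving out culture 1, 2 or 3 (edgeR adjusted p = 0.282, 0.0989 and 0.102).

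Amphiphysin 1, the neuronal form encoded by *Amph*, ran from 188 to 223 CPM in RFP (median 215) and from 63.8 to 179 CPM in CRE libraries (median 147). No CRE library reached the lowest RFP library, and CRE1-3 was the lowest at 63.8 CPM. The level fell by 36.1%, a log2 fold change of -0.65 (standard error 0.13, edgeR adjusted p = 3.79e-04), or -0.57 without CRE1-3.

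Amphiphysin 2, encoded by *Bin1* and also abundant in muscle and glia, had 79.9 to 142 CPM in RFP (median 91.2) and 80.2 to 233 CPM in CRE libraries (median 102). The ranges overlapped almost fully apart from CRE1-3 at 233 CPM. Its log2 fold change of 0.24 (95% interval -0.08 to 0.55, edgeR adjusted p = 0.288) did not pass, and it was 0.09 without CRE1-3. The 3 CRE libraries of culture 3, at 128 to 133 CPM, lay above the 3 RFP libraries of that culture, at 86.3 to 103 CPM, while in culture 2 the means were 100.1 and 99.3 CPM.

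Dynamin 1, the neuronal dynamin encoded by *Dnm1*, had 356 to 635 CPM in RFP (median 450) and 252 to 681 CPM in CRE libraries (median 321). Of the CRE libraries, 8 of 11 were under the lowest RFP value and CRE1-3 exceeded the highest. The highest RFP value belonged to RFP2-4, whose share of mitochondrial counts was also low. The log2 fold change was -0.41 (standard error 0.14, edgeR adjusted p = 0.0304). It was -0.56 (edgeR adjusted p = 2.11e-05) without CRE1-3 and -0.34 (edgeR adjusted p = 0.0763, no longer called) without RFP2-4. Over all 23 libraries, with CRE3-3 at 790 CPM, it was -0.24 (edgeR adjusted p = 0.324), where 11.8% of 14382 genes were lower.

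Dynamin 3, encoded by *Dnm3* and found at both sides of the synapse, had 117 to 189 CPM in RFP (median 152). The CRE libraries spread from 20.3 to 221 CPM (median 130), the widest relative spread of the 10, with 5 of 11 below and 2 of 11 above every RFP library. The log2 fold change of -0.35 (95% interval -0.84 to 0.15, edgeR adjusted p = 0.327) did not pass under any setting run.

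Synaptojanin 1, encoded by *Synj1*, had 281 to 342 CPM in RFP (median 321) and 144 to 296 CPM in CRE libraries (median 251). All but 1 of the 11 CRE libraries were under the lowest RFP value, and the overlap came from RFP2-4, the lowest RFP library. The level fell by 23.1%, a log2 fold change of -0.38 (standard error 0.10, edgeR adjusted p = 0.00444), or -0.32 without CRE1-3. It was the smallest fall of the 5 genes called lower and was called in all 21 comparisons that left out one library.

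AP180, the neuronal clathrin assembly protein encoded by *Snap91*, ran from 325 to 434 CPM in RFP (median 382) and from 154 to 271 CPM in CRE libraries (median 247). The groups did not overlap, and CRE1-3 was again the lowest. The level fell by 38.9%, a log2 fold change of -0.71 (standard error 0.10, edgeR adjusted p = 2.93e-06), or -0.66 without CRE1-3. With *Sh3gl2* and *Amph*, it was called under all 17 other settings and on leaving out each of the 21 libraries.

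**Figure D2:**
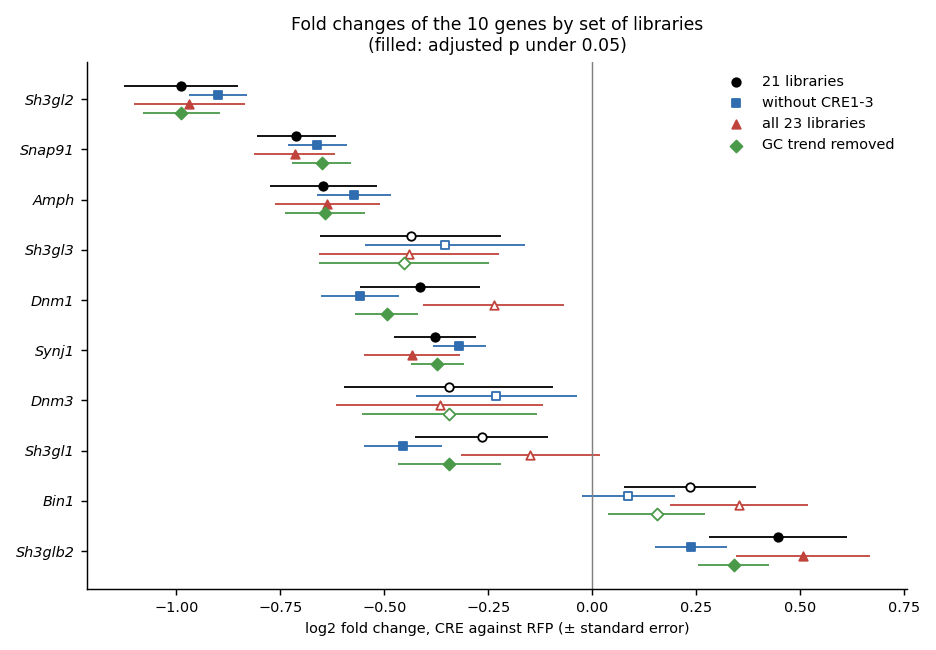
Log2 fold change of CRE against RFP for each of the 10 genes with its standard error, under 4 sets of libraries or scalings, where filled symbols have an adjusted p under 0.05. *Sh3gl2*, *Snap91*, *Amph* and *Synj1* are filled and left of 0 in all 4, *Dnm1* is open with all 23 libraries (-0.24), and *Sh3gl1* is filled without CRE1-3 (-0.45) and with the GC trend removed (-0.34).

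When each library's trend with GC content was removed over the 21 libraries, *Sh3gl1* was called at -0.34 (edgeR adjusted p = 0.031) and *Dnm1* at -0.49 (edgeR adjusted p = 8.75e-06), and *Sh3glb2* stayed higher at 0.34 (edgeR adjusted p = 0.00221), where 17.5% of all genes were lower and 19.5% higher. For *Sh3gl2* the value was -0.99, as without the correction. On the libraries that the methods of the study retain, which leave out CRE1-3 and CRE3-3 and keep RFP3-2, *Sh3gl1* was lower at -0.42 (edgeR adjusted p = 4.67e-04) and 6 of the 10 genes were lower, where 17.8% of 14482 genes were.

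Ratios of read counts within a library do not depend on its size, and they set a neuronal form beside a widely expressed one. They are ratios of counts and not of molecules, since gene lengths differ. All 7 were compared by a permutation test of 100000 resamples on log2 ratios, two-sided, with p adjusted over the 7. Of these, 5 were lower in CRE, 1 was higher and 1 did not pass the threshold. The numerators of the 5 lower ratios are the 5 genes called lower above, so these ratios restate those calls in part.

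*Sh3gl2* had 3.10 to 5.02 reads for each read of *Sh3gl1* in RFP (median 3.70) and 0.375 to 3.46 in CRE libraries (median 2.99). The difference in log2 ratio was -0.70 (permutation test, adjusted p = 0.00101), and 8 of 11 CRE libraries were under the lowest RFP ratio. *Amph* over *Bin1* was 1.53 to 2.49 in RFP and 0.274 to 1.76 in CRE libraries, a difference of -0.88 (permutation test, adjusted p = 0.00014). In both, CRE1-3 was the lowest and the highest CRE ratios reached into the RFP range. Without CRE1-3 the lowest CRE ratios were 2.11 and 0.849, the log2 ratio endophilin A1 over A2 differed by -0.44 (permutation test, adjusted p = 0.000758) and the log2 ratio amphiphysin 1 over 2 by -0.675 (permutation test, adjusted p = 0.000297).

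*Dnm1* over *Dnm2*, the dynamin of most tissues, was 10.8 to 25.3 in RFP (median 14.5) and 6.64 to 15.6 in CRE libraries (median 8.68). That is a difference of -0.69 in log2 ratio (permutation test, adjusted p = 0.00042), while *Dnm2* itself had a log2 fold change of 0.31 (edgeR adjusted p = 0.276). *Dnm1* over *Dnm3* was 2.17 to 5.43 in RFP and 1.63 to 33.4 in CRE libraries, where 33.4 was CRE1-3. Its difference was 0.11 (permutation test, adjusted p = 0.867) and turned to -0.22 without CRE1-3, also not past the threshold.

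*Synj1* over *Synj2*, the widely expressed synaptojanin, showed the largest difference, -1.28 in log2 ratio (permutation test, adjusted p = 0.00014). It was 13.6 to 55.5 in RFP (median 19.9) and 3.71 to 16.2 in CRE libraries (median 9.33), and *Synj2* rose on its own by a log2 fold change of 0.84 (edgeR adjusted p = 0.00254). Exons of *Synj2* share 1826 of 11422 bases with genes on the opposite strand, among them *Serac1*. As for *Sh3gl1* and *Sh3glb2*, their reads may not have been told apart. *Snap91* over *Picalm*, which encodes the AP180 relative CALM of most tissues, was 1.92 to 3.50 in RFP and 1.27 to 2.37 in CRE libraries, with 10 of 11 CRE libraries under the lowest RFP ratio. The difference was -0.68 (permutation test, adjusted p = 0.00014), with *Picalm* itself at a log2 fold change of -0.01 (edgeR adjusted p = 0.961). Here CRE1-3 was the highest CRE library, at 2.37, and the next was 1.75.

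*Sh3gl2* over *Slc17a7*, the vesicular glutamate transporter VGLUT1, went the other way. The ratio was 0.152 to 0.305 in RFP (median 0.230) and 0.0714 to 0.636 in CRE libraries (median 0.515), so *Slc17a7* fell further than *Sh3gl2*. The difference was 0.90 in log2 ratio (permutation test, adjusted p = 0.00742). The log2 ratio endophilin A1 over VGLUT1 no longer passed without culture 2 (0.75, permutation test, adjusted p = 0.171) or without culture 3 (0.86, permutation test, adjusted p = 0.0559). Of the 11 CRE libraries, 10 exceeded the highest RFP ratio and CRE1-3, at 0.0714, was under the lowest, while CRE3-3 had 0.142.

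**Figure D3:**
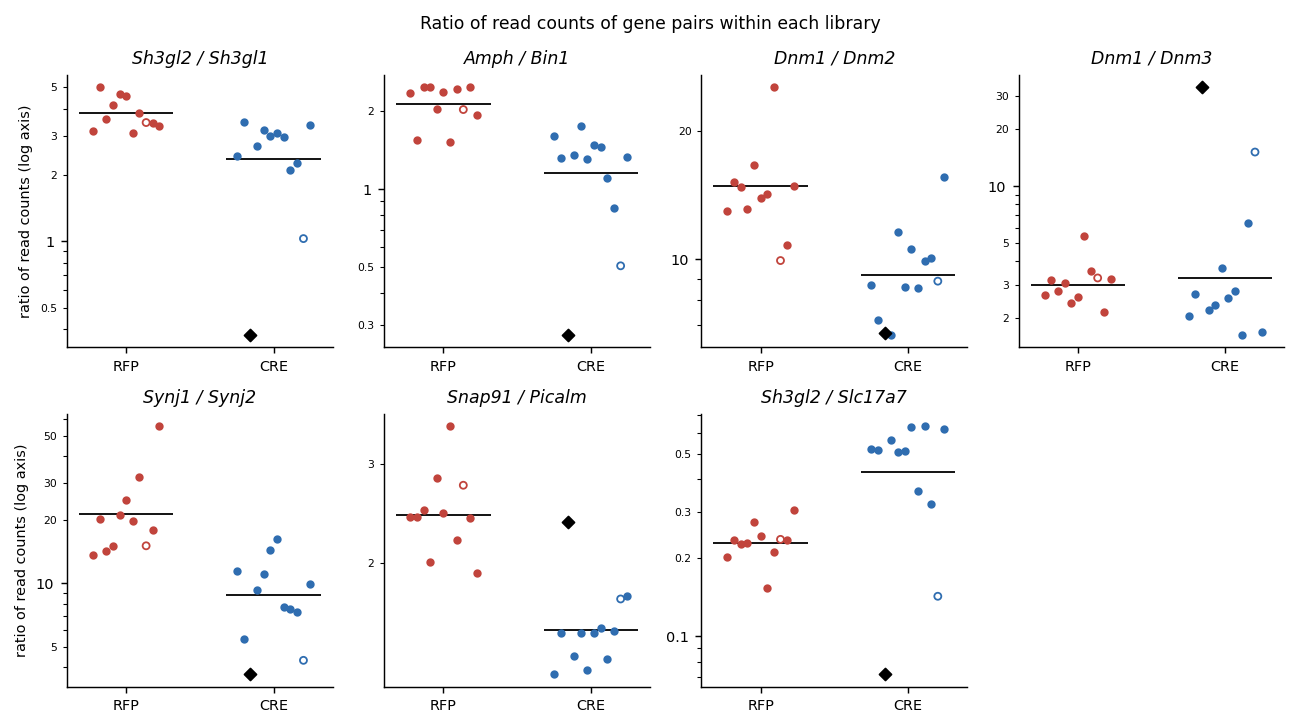
Ratio of read counts of 7 gene pairs in each library on log axes; lines are geometric means of the 21 libraries compared, the black diamond is CRE1-3 and open circles are CRE3-3 and RFP3-2. The CRE points lie lower for 5 pairs. For *Sh3gl2* over *Slc17a7* they lie higher except for CRE1-3 at 0.0714 and the open circle of CRE3-3 at 0.142. The diamond is far above the rest for *Dnm1* over *Dnm3* at 33.4.

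The fall of *Sh3gl2* was seen in each culture number. Culture means were 246, 244 and 222 CPM in RFP and 109, 134 and 122 CPM in CRE libraries, and the ranges did not overlap in any of them. *Snap91* had 398, 377 and 378 CPM in RFP and 230, 253 and 227 CPM in CRE, and *Amph* 209, 204 and 213 against 113, 150 and 143 CPM. A test of culture by condition found 0 of the 10 genes, and 1 of 14488 genes in all (0.0069%), at an adjusted p under 0.05 in edgeR, and the smallest unadjusted p of the 10 was 0.125, for *Sh3glb2*.

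Fits within each culture had 6 to 8 libraries. In culture 2, which holds RFP2-4 but neither CRE1-3 nor a removed library, *Sh3gl2* (-0.92), *Dnm1* (-0.67), *Snap91* (-0.63), *Sh3gl1* (-0.52) and *Amph* (-0.49) were lower at edgeR adjusted p from 1.08e-04 to 0.0265, where 11% of 14523 genes were lower. In culture 3, *Sh3gl2* (-0.86) and *Snap91* (-0.74) were lower (3.8% of 14753 genes). In culture 1, which contains CRE1-3, none of the 10 passed in edgeR (0.86% of 15461 genes lower), though *Sh3gl2*, *Snap91*, *Amph* and *Sh3gl3* had an unadjusted p under 0.05 there with log2 fold changes of -1.19, -0.81, -0.90 and -0.91. With counts summed per culture and group, *Sh3gl2* was at -0.98 (edgeR adjusted p = 5.31e-05), and *Snap91*, *Amph*, *Dnm1*, *Synj1* and *Sh3gl1* were also lower at edgeR adjusted p from 2.59e-04 to 0.0489, where 11% of 18417 genes were. *Dnm3* was at -0.66 and -0.45 in cultures 1 and 2 and at 0.12 in culture 3.

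**Figure D4:**
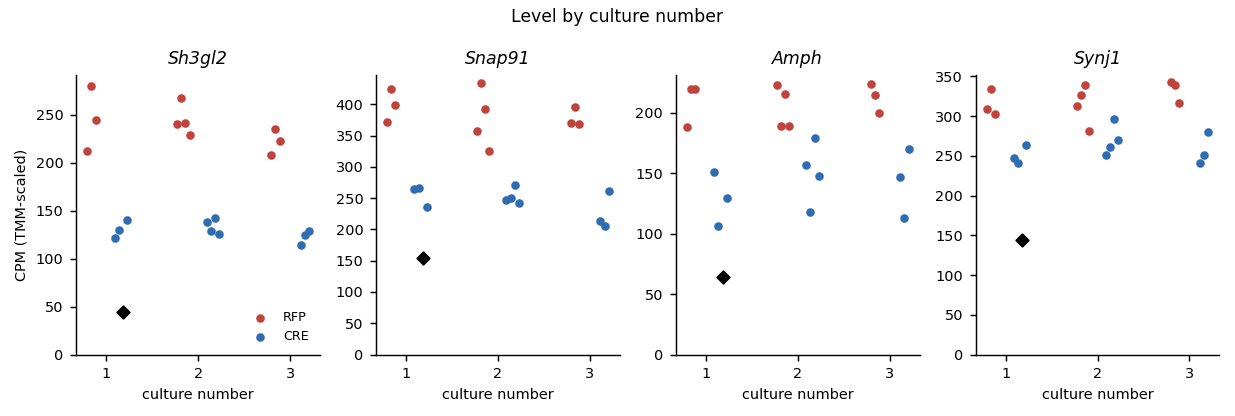
Level of *Sh3gl2*, *Snap91*, *Amph* and *Synj1* by culture number, in CPM on axes that start at 0, with 1 point per library and CRE1-3 as a black diamond. In *Sh3gl2* the CRE points of each culture lie below its RFP points, with culture means of 109, 134 and 122 CPM against 246, 244 and 222.

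The rest of the pathway moved less uniformly. Of 60 other endocytosis genes listed, 58 were tested (*Epn3* and *Bin2* were too low), and 13 were lower, 14 higher and 31 not called, with a median log2 fold change of -0.04 against 0.02 over all genes. These calls compare with 13.8% lower and 16.4% higher over all genes. Without CRE1-3, 21 of the 58 were lower, against 18.7% of all genes.

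Among clathrin chains, AP2 subunits and the AP2 partner *Necap1*, which act in the coat, 3 of 9 were lower and 0 higher, beside 13.8% and 16.4% of all genes. *Ap2a2*, *Ap2b1* and *Ap2m1* encode an alpha, the beta and the mu subunit of AP2, and their log2 fold changes were -0.49, -0.35 and -0.32 (edgeR adjusted p = 6.98e-04, 0.00118 and 0.00655). The other alpha gene *Ap2a1* and the sigma gene *Ap2s1* were at -0.10 and -0.07 and not called (edgeR adjusted p = 0.677 and 0.829). For these, CRE1-3 stood at 475 and 218 CPM, above every RFP library. *Ap2b1* stood at 438 to 559 CPM in RFP and 342 to 456 CPM in CRE libraries, with 10 of 11 CRE libraries under the lowest RFP value. None of the 3 clathrin chains passed in edgeR with CRE1-3 included. The heavy chain *Cltc* was at 0.26 (edgeR adjusted p = 0.279) with it and at 0.36 (edgeR adjusted p = 9.92e-04) without it.

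Among cargo and coat adaptors, 2 of 14 were lower and 3 higher, beside 13.8% and 16.4% of all genes. *Dab2*, an adaptor for lipoprotein receptors, rose from 2.36 to 8.17 CPM in RFP to 7.89 to 35.6 CPM in CRE libraries. The log2 fold change was 2.10 (edgeR adjusted p = 7.06e-07), with 10 of 11 CRE libraries over the highest RFP value. *Ston1*, which encodes stonin 1, rose by 1.75 and *Numb*, an endocytic adaptor that restrains Notch, by 0.61. *Sgip1*, a neuronal regulator of AP2, fell by 0.48 with 125 to 217 CPM in RFP and 52.7 to 153 CPM in CRE libraries.

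Among other paralogs and proteins with BAR or sorting nexin folds, 7 of 16 were higher and 1 lower, beside 16.4% and 13.8% of all genes, and only 2 had a negative log2 fold change, with a median of 0.49. *Snx33*, a sorting nexin with a BAR domain, rose most, from 7.12 to 19.6 CPM in RFP to 24.2 to 101 CPM in CRE libraries, with a log2 fold change of 2.48 (edgeR adjusted p = 9.31e-09). *Pacsin2*, the widely expressed syndapin, had 34.5 to 64.7 CPM in RFP and 68.8 to 112 CPM in CRE libraries (log2 fold change 0.96), and *Snx18*, a relative of *Snx33*, 48.7 to 80.7 against 92.8 to 162 CPM (0.86). In these 3 genes all CRE values exceeded all RFP values, as they did for 2.64% of all genes. *Trip10*, which encodes the F-BAR protein CIP4, rose by 1.01 (edgeR adjusted p = 0.0312) at no more than 19.6 CPM. *Pacsin1*, the neuronal syndapin, was the one that fell, by 0.48, and *Sh3glb1*, which encodes endophilin B1, was at 0.30 (edgeR adjusted p = 0.0554).

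Among uncoating and phosphoinositide genes, 2 of 11 were lower and 2 higher, beside 13.8% and 16.4% of all genes. *Tbc1d24*, which encodes a phosphoinositide-binding vesicle protein, fell from 179 to 253 CPM in RFP to 85.4 to 150.0 CPM in CRE libraries, with a log2 fold change of -0.90 (edgeR adjusted p = 1.35e-07) with no overlap. *Dnajc6*, the gene of the neuronal uncoating factor auxilin, fell by 0.48 (edgeR adjusted p = 0.00193). *Synj2* and the lipid kinase gene *Pi4k2a* rose by 0.84 and 0.52, and for *Pi4k2a* the value was 0.32 without CRE1-3, which held 254 CPM.

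Among kinases and calcineurin, which act on the endocytic proteins, 5 of 8 were lower and 2 higher, beside 13.8% and 16.4% of all genes. *Ppp3cb* and *Ppp3ca*, the catalytic subunits of calcineurin, the phosphatase that activates dynamin 1 and its partners, fell by 0.96 and 0.81 (edgeR adjusted p = 3.44e-05 and 9.06e-05). RFP2-4 was the lowest RFP library for both, at 209 and 474 CPM. *Cdk5r1*, the activator of the kinase CDK5, fell by 0.57 and *Bmp2k*, a relative of the AP2 kinase AAK1, rose by 0.67. *Aak1* itself fell by 0.37 (edgeR adjusted p = 0.00816), at a mean of 384 CPM in RFP against 12.1 CPM for *Bmp2k*.

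**Figure D5:**
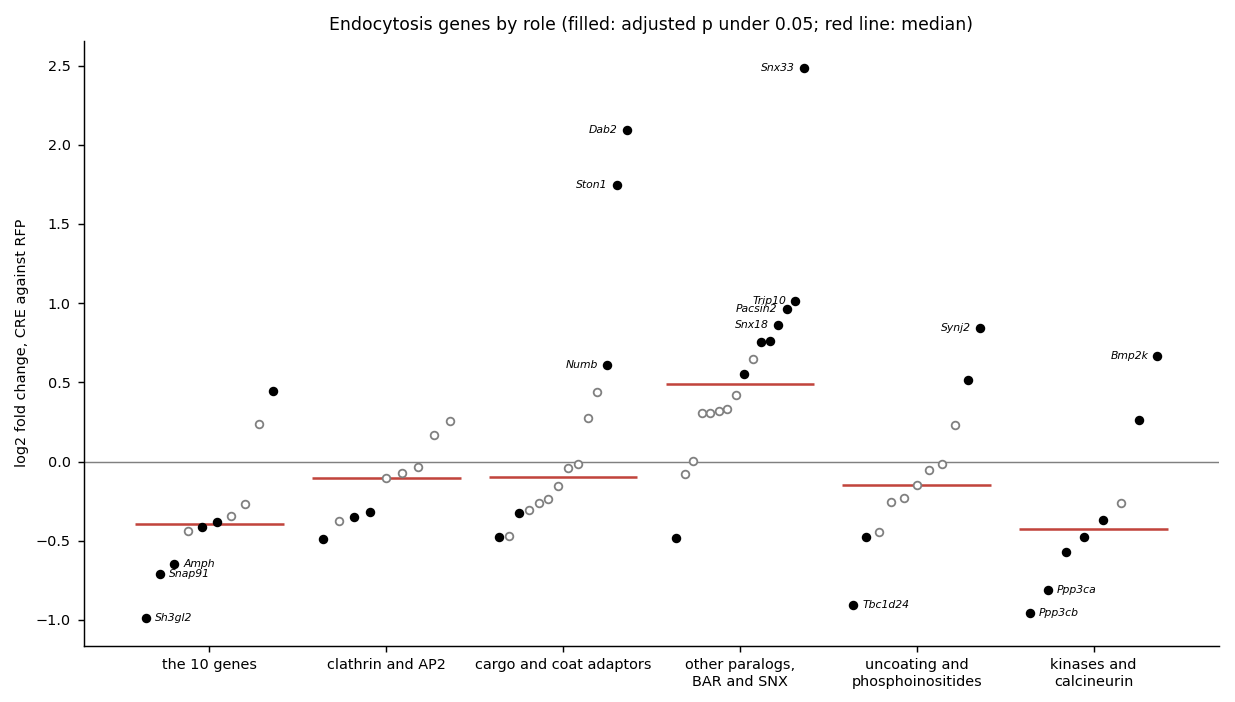
Log2 fold change of CRE against RFP for the 10 genes and for 58 other endocytosis genes in 5 lists by role, with 1 point per gene, filled at an adjusted p under 0.05, and red lines at the medians. The median is -0.40 for the 10 genes, 0.49 for other paralogs, BAR and sorting nexin genes and -0.42 for kinases and calcineurin, and *Snx33* is highest at 2.48.

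Levels of some cell type markers also differed between the groups, and their part in the results above was not tested. The counts of markers called compare with 13.8% lower and 16.4% higher over all genes tested. Of 10 neuronal markers, 4 were lower (*Rbfox3*, *Map2*, *Tubb3*, *Stmn2*) and 1 higher (*Nefm*), 8 had a negative log2 fold change, and their summed level was 5515 to 6638 CPM in RFP and 3437 to 5731 CPM in CRE libraries, with CRE1-3 lowest. Of 8 GABA neuron markers, 3 were lower and 3 higher (summed 1097 to 2124 and 728 to 1615 CPM). Of 8 astrocyte markers, 4 were lower and 1 higher (3612 to 7845 and 1559 to 5126 CPM), and of 9 oligodendrocyte lineage markers tested, 6 were lower and 0 higher (678 to 1975 and 447 to 1981 CPM). The 1981 CPM were in CRE1-3, and the other CRE libraries reached 1065 CPM. Of 2 microglial markers tested, *Tmem119* was higher (edgeR adjusted p = 5.17e-04), at no more than 0.92 CPM in RFP and 3.35 CPM in CRE libraries, and of 5 endothelial or mesenchymal markers tested, *Pdgfrb* was higher, at a mean of 6.14 CPM in RFP and 10.9 CPM in CRE libraries (edgeR adjusted p = 0.0176). These markers summed to at most 7.70 and 239 CPM in any library, with *Cx3cr1*, *Aif1*, *C1qa* and *Cldn5* near 0, and no listed marker was at 0 in all libraries.

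The genes whose log2 CPM followed *Sh3gl2* most closely over the 21 libraries were *Norad*, *Apc*, *Clstn2*, *Kif5c* and *Psd3*, with Pearson's r of 0.983, 0.972, 0.972, 0.967 and 0.965. These values are a description, since the points share the difference between the groups and the GC trend of CRE1-3. Within the 10 RFP libraries r was 0.513, 0.579, -0.302, 0.308 and 0.236, and within the 10 CRE libraries other than CRE1-3 it was 0.564, 0.436, 0.60, 0.737 and 0.159, so the likeness lies mostly between the groups.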

How the data were processed

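Poly(A) RNA was sequenced in 23 libraries of cultured hippocampal neurons. The authors demultiplexed with bcl2fastq 2.20.0.422, aligned reads with STAR 2.7.8a to GRCm39 with Ensembl annotation (2 mismatches per 50 bases) and deposited one file of raw counts per gene and library from featureCounts 1.5.0-p1, per the methods and the submitters' processing notes. These counts are whole numbers without normalization, and the handling of strand and multi-mapped reads is not given in the sources used here. GENCODE M39 named 56323 of 56941 identifiers.

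Counts were analysed in R 4.3.3 with edgeR 4.0.16 (filterByExpr, TMM, robust glmQLFit, glmQLFTest), called at a Benjamini-Hochberg adjusted p under 0.05 over all genes tested. The standard error was the log2 fold change divided by the square root of F. Alternatives used DESeq2 1.42.0 and limma-voom in limma 3.58.1, and ratios (pseudocount 0.5), motifs and figures Python 3.11.15 with numpy 2.4.6, pandas 2.3.3, scipy 1.17.1 and matplotlib 3.10.9. The fits were tested on simulated data. Ranges of CPM cover the 10 or 11 libraries of a group.

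The 10 genes, the other lists and the tests were chosen with earlier results of these data known. Beyond the 10, the text names up to 4 called genes per list with the largest fold change, the paralogs *Dnm2*, *Synj2*, *Picalm* and *Sh3glb1*, *Nedd8* and *Slc17a7*, and the 5 genes most correlated with *Sh3gl2*. *Cltc*, *Ap2a1*, *Ap2s1*, *Pacsin1*, *Aak1*, the markers and *Rn18s-rs5* fall outside this rule and were chosen after their values were seen. The fits within cultures and the ratios without CRE1-3 were also chosen after seeing the data. Over all genes and with CRE1-3 included, deviations of same-numbered libraries from their group means correlated at -0.062 to 0.115 over 9 pairs. Those of cultures correlated at 0.021 to 0.141, and 1 of 3 cultures was best matched to its own number. This check cannot exclude a culture effect on single genes. Culture means of *Slc1a2* were 2297, 2343 and 1562 CPM in RFP and 1305, 1386 and 919 CPM in CRE libraries. Those of *Mbp* were 68.2, 96.2 and 17.9 CPM in RFP and 41.9, 41.9 and 41.3 CPM in CRE libraries. No libraries of a group agreed within counting noise.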

Additional observations from a re-analysis of the deposited data

Results flagged for a closer look

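In a group of 10 RFP libraries, a value was looked at again where its gap to the nearest other library took an unusually large share of the range by Dixon's criterion. Chance does this in about 1 in 20 groups, and 41 values were examined. The CRE group, with 11 libraries, was not examined. RFP2-4 accounted for 6 of the 8 values found. It held the highest RFP level of *Sh3glb2* (145 CPM), *Dnm1* (635 CPM), *Ap2m1* (320 CPM) and *Trip10* (9.08 CPM) and the lowest of *Picalm* (92.8 CPM), and the highest RFP ratio of *Dnm1* over *Dnm3* reads (5.43). It also had 3.44% mitochondrial counts and a rho of 0.395 with GC content, and the part of these in its values was not tested. The ratio of *Dnm1* over *Dnm2* was 25.3 in RFP3-1, and that of *Synj1* over *Synj2* was 55.5 in RFP3-4.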

How the results depend on the processing

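None of the 10 genes changed sign under 17 other settings or on leaving out any of the 21 libraries. *Sh3gl2*, *Snap91* and *Amph* stayed called in all of these, *Synj1* in all but the fit without culture 2 (edgeR adjusted p = 0.058), *Dnm1* in 12, *Sh3glb2* in 10 and *Sh3gl1* in 6 of the 17. Of the 10 genes, the number lower was 5, with 3 to 6 on leaving out a culture or library (3 without culture 2), and the number higher was 1, with 0 under limma-voom, with the culture number or the culture and library number as a replicate block and with counts summed per culture, and 0 to 1 on leaving out a culture or library. Other endocytosis genes lower numbered 13, with 21 once the GC trend was removed, with or without the replicate block, and 4 (without culture 2) to 21 (without CRE1-3) on leaving out a culture or library. Those higher numbered 14, with 9 under the replicate block of culture and library number and 9 (without culture 2) to 18 on leaving out. The replicate block changed no other of these counts by over 1.5 times. Over all genes, the number lower was 1996 of 14488, with 2542 and 2592 once the GC trend was removed without and with the block. It was 803 of 14745 without culture 2 and 2717 of 14498 without CRE1-3. The number higher over all genes was 2374 of 14488, with 1634 under the block of culture and library number and 1311 of 14745 without culture 2. Near 0, *Dnm2* ran from -0.0189 (without culture 1) to 0.562 on leaving out, and *Picalm* turned to 0.106 on the libraries left by the methods of the study, 0.00397 without the 4 libraries in doubt (CRE1-3, CRE3-3, RFP2-4 and RFP3-2), 0.0775 with total counts, 0.0704 and 0.0615 with the GC trend removed without and with the block, and ran from -0.153 to 0.0701 (without CRE1-3) on leaving out. *Dnm1* over *Dnm3* turned to -0.23 on the libraries left by the methods, -0.13 without the 4 in doubt, and -0.22 to 0.30 on leaving out. The log2 ratio endophilin A1 over VGLUT1 (*Sh3gl2* over *Slc17a7*) was 0.75 (permutation test, adjusted p = 0.171) without culture 2 and 0.86 (permutation test, adjusted p = 0.0559) without culture 3, with 0.75 to 1.16 on leaving out. The cause of these changes was not tested. With 45 to 8161 counts per gene and library for the 10 genes, depth limits *Sh3gl3* most.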
